A study of Mus musculus with 28 samples.

Results

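In the subependymal zone (SEZ) of the adult mouse, the strip of tissue beside the lateral ventricles where neurons are still born, Crym-positive astroglial cells carry transcripts of Crym together with those of astroglial genes. A sorted well was counted as one when it held at least 1000 transcripts outside the ERCC spike-ins, at least 30 transcripts per 10000 from Slc1a2, Slc1a3, Aldoc, Clu and Aqp4 together (the astroglial gate), at least 2 Crym transcripts and fewer than 2 Thbs4 transcripts. This rule kept 217 cells, out of 762 cells in the astroglial gate, 1789 wells with at least 1000 transcripts and 2688 wells in all. They were set against the 458 gate cells with 0 Crym transcripts, called Crym-zero cells below. Crym, Thbs4 and the 5 gate genes chose the cells, so their values are a description and carry no test.

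Crym encodes mu-crystallin, a cytosolic protein that binds thyroid hormone and also has ketimine reductase activity, and in the mouse brain it is known as a marker of a subset of striatal astrocytes. Astrocytes and quiescent neural stem cells of the SEZ share most of their transcripts, including the glutamate transporters of Slc1a2 and Slc1a3, and stem cells are told from astrocytes by few genes. Thbs4, which encodes the secreted matrix protein thrombospondin-4, is known as a marker of SEZ stem cells, and Agt, which encodes angiotensinogen, as a marker of some astrocyte groups.

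Cells were profiled by SORT-seq, in which single cells are sorted by fluorescence into wells and read by the CEL-seq protocol, in 7 sorts of 4 libraries with 96 wells each, all from mice of a Bl/6 background. The day-60 tdTomato sort came from Ki67iresCreER +/ki; Rosa-tdTomato +/ki mice of 16 to 19 weeks that had received 5 mg tamoxifen once and were taken 60 days later, so tdTomato marks cells that had expressed Mki67 and their progeny. The day-2 tdTomato sort used the same alleles and dose at 2 days in mice of 8 to 10 weeks. The mixed day-60 sort held tdTomato cells of the SEZ or olfactory bulb and cells bound by an O4 antibody from mice of 8 to 19 weeks. Its labels name the same Ki67iresCreER; Rosa-tdTomato line, taken 60 days after 5 mg tamoxifen given once. GLAST/EGF cells were sorted by binding of a GLAST antibody and/or of labelled EGF, GLAST being the product of Slc1a3. The Ki67-RFP sort used Ki67tagRFP ki/ki mice, and for Prom1/CD24 cells antibodies to both of these surface proteins were used. Troy-GFP cells were GFP+ cells of Troy-GFPiresCreER +/ki mice, in which the reporter sits in the gene of the receptor Troy. These last 4 sorts came from mice of 8 to 10 weeks. Nothing in the labels ties a library to its own mice, so the p-values may reflect technical spread alone.

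Library totals ran from 77795 to 575257 estimated transcripts, with 11 to 89 cells each. Crym-positive cells held 1295 to 15191 transcripts with a median of 5305 and a median of 2401 genes, against a median of 4968 transcripts and 2356 genes in Crym-zero cells. All libraries used the same 96 cell barcodes, 90 of which carried a Crym-positive cell, in at most 5 libraries on 1 barcode. GLAST/EGF library 4 stood apart: 3 of its 7 Crym-positive cells lay below 60 gate transcripts per 10000, and these 3 supplied 69.3% of the transcripts summed over the 7. Calls that rest on it are named as such. Of the 217 Crym-positive cells, 2 carried markers of another cell type above the limits stated under processing and 6 those of progenitors or dividing cells, against 49 and 44 of the 458 Crym-zero cells. Choroid plexus markers marked 1 of the Crym-positive and 13 of the Crym-zero cells, and oligodendrocyte markers 0 and 20.

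The astroglial identity of the cells held beyond the genes of the rule. The 26 astrocyte markers outside the gate, such as Gja1, Glul and Apoe, summed to a median of 644 transcripts per 10000 in Crym-positive cells, with all 26 detected, against 562 in Crym-zero cells. Summed markers of mature neurons, ependymal cells and microglia each had a median of 0 in both kinds of cell. Those of other types had medians, per 10000 transcripts, of 13.2 in Crym-positive and 9.05 in Crym-zero cells for oligodendrocyte precursors, 3.96 and 2.58 for endothelium, 3.37 and 0.80 for choroid plexus, and 1.37 and 0 for pericytes. These medians, over cells of all sorts, were thus higher in Crym-positive cells. Over 11 libraries the library means had medians, in the same order, of 12.8 and 10.1, 5.29 and 4.97, 1.62 and 1.01, and 1.77 and 0.961. The highest choroid plexus library mean was 59.4 in Crym-positive and 223 in Crym-zero cells. The part of these markers in the results was not tested. Crym itself ran from 2.01 to 47.1 transcripts per cell, with a median of 8.13 and 26 cells just inside the threshold, at 2. Just outside it lay 65 gate cells with 1 Crym transcript, and 22 gate cells carried at least 2 transcripts of both Crym and Thbs4. Transcripts of Crym were close to limited to the gate: of 240 cells in the series with at least 2, 1 of the 1027 cells outside the gate held them. Neuroblast-marker cells outside the gate, at a median of 6160 transcripts, showed a Crym transcript in 1.20% of 666 cells.

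The other marker genes of these cells were Fjx1, Nkain4, Hapln1 and Grin2c, which had been picked from the same data. They stayed in the fits, but no test of them is given, and the counts over lists below leave them out. Fjx1, the mouse counterpart of the fly polarity kinase four-jointed, was detected in 90.8% of Crym-positive and 72.9% of Crym-zero cells. Nkain4, which encodes a partner of the sodium pump, was detected in 81.1% and 61.4%, in the same order. Hapln1, the link protein that ties hyaluronan to matrix proteoglycans, was detected in 65.4% of Crym-positive and 39.7% of Crym-zero cells. Grin2c, the NMDA receptor subunit known in mouse astrocytes, was detected in 81.6% of Crym-positive and 64.6% of Crym-zero cells. With all sorts pooled, each of the 4 was thus more often found in Crym-positive cells. Each was also found in a large part of the other gate cells. Within libraries the summed levels did not always go this way. Grin2c and Hapln1 were lower in Crym-positive cells of GLAST/EGF libraries 2, 3 and 4 and of Troy-GFP library 1. Hapln1 was also lower in day-60 library 3, and Fjx1 and Nkain4 in GLAST/EGF libraries 2 and 4. In the other libraries compared below each was higher. In neuroblast-marker cells the shares were 11.9% for Fjx1, 3.15% for Nkain4, 0.450% for Hapln1 and 3.45% for Grin2c. All 4 markers were present together in 110 Crym-positive cells (50.7%), against 24.5% of Crym-zero cells, and all 4 were missing in 5 Crym-positive cells (2.30%), against 43 Crym-zero cells (9.39%).

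The promoters of Grin2c and of Six3, the transcription factor gene described below as higher in Crym-positive cells, are shown because the first holds the core motif of nuclear receptors, thyroid hormone receptors among them, and the second does not. Both run 5′ to 3′ on the strand of the gene, from 250 bases before to 50 bases after the RefSeq start (RefSeq, GRCm38.p6). They lie at chr11:115267194-115267493 on the minus strand (Grin2c) and chr17:85620584-85620883 on the plus strand (Six3). Capitals mark the core motif AGGTCA in Grin2c and the CCAAT box, CCAAT or ATTGG, in Six3, which were the 2 motifs searched on both strands.
Grin2c: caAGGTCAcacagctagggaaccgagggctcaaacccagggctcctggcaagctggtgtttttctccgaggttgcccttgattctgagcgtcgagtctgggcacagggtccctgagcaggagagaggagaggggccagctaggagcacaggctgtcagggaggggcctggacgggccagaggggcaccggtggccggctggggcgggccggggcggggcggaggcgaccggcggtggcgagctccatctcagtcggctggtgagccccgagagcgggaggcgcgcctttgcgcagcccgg
Six3: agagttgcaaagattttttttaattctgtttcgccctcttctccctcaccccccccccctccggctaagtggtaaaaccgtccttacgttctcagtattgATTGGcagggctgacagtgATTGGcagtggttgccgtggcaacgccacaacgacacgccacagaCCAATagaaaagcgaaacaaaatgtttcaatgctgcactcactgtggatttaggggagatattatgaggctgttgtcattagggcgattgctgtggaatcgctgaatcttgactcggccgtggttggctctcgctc
The core motif occurred 1 time in the Grin2c window and the CCAAT box 3 times in the Six3 window. Over all 32851 RefSeq promoters of this length, 16.3% held AGGTCA and 37.4% held CCAAT on either strand. Of 136 promoters of the genes higher in Crym-positive cells, 11 held AGGTCA and 47 held CCAAT. A match is only a run of letters. Of 10 genes looked up, 6 had an entry.

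Crym-positive cells took a larger share of the astroglial gate in the day-60 tdTomato sort than in the others with enough gate cells. They made up 35.4%, 53.4%, 39.2% and 39.2% of gate cells in the 4 day-60 libraries, 11.8%, 19.2%, 21.4% and 16.7% in the 4 GLAST/EGF libraries, and 26.5%, 20.97%, 23.6% and 25.4% in the 4 Troy-GFP libraries. The day-60 values lay above all others, while GLAST/EGF and Troy-GFP overlapped. The mean was 41.8 ± 7.94% in day-60 libraries and 24.1 ± 2.40% in Troy-GFP libraries (SD, n = 4 each), a difference of 17.7 percentage points (exact two-sided permutation test, p = 0.0286, the smallest that 4 against 4 libraries allow, adjusted p = 0.0429 over 3 pairs). Day-60 libraries also exceeded GLAST/EGF libraries, at 17.3 ± 4.16%, by 24.5 points (exact permutation test, adjusted p = 0.0429). GLAST/EGF libraries differed from Troy-GFP libraries by -6.84 points (exact permutation test, adjusted p = 0.0571). This difference passed, at an exact permutation adjusted p of 0.0286, in each of 4 other settings: -8.79 points with cells thinned to 3000 transcripts, -11.6 with Crym-positive cells from 1 transcript, -9.13 with the gate at 60 per 10000 and -7.45 without cells of other types. All day-60 libraries and Troy-GFP libraries 3 and 4 carry the same code in their deposited names. It is taken here as a shared flow cell, which the sample descriptions do not state. These Troy-GFP libraries, at 23.6% and 25.4%, also lay below all 4 day-60 libraries. The rule leaves out gate cells with at least 2 transcripts of both Crym and Thbs4. These numbered 1, 5, 6 and 4 in Troy-GFP libraries 1 to 4 and 0, 3, 0 and 0 in day-60 libraries. In GLAST/EGF libraries they numbered 0, 1, 0 and 1. They count as gate cells only, which lowers the Troy-GFP shares more than the day-60 shares. Shares with them counted as Crym-positive were not tested. Day-60 and Troy-GFP cells differ in age, tamoxifen, alleles and sex-linked transcripts, whose effects cannot be told apart.

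**Figure D1:**
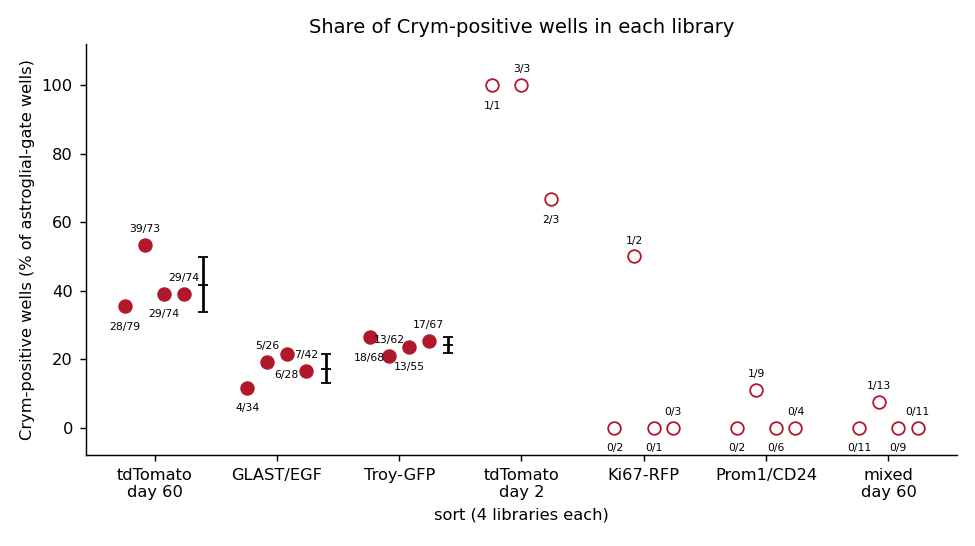
Crym-positive cells as a percentage of astroglial-gate cells (vertical axis) in each library of the 7 sorts (horizontal axis), with the number of Crym-positive and of gate cells beside each point. Filled points are sorts with at least 10 gate cells in every library, with the mean and SD to their right, and open points the others; the day-60 libraries, at 35.4% to 53.4%, lie above every GLAST/EGF and Troy-GFP library.

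The other sorts held few gate cells. Of 7 gate cells in the day-2 tdTomato sort, 6 were Crym-positive (85.7%, exact Clopper-Pearson 95% interval 42.1% to 99.6%), with a median of 12.3 Crym transcripts. Crym-positive cells numbered 1 of 44 gate cells in the mixed day-60 sort (2.27%, 0.0575% to 12.02%), 1 of 8 in Ki67-RFP and 1 of 21 in Prom1/CD24. These intervals cover counting error only. The median of Crym within the cells was 8.13 transcripts in day-60, 5.56 in GLAST/EGF and 7.10 in Troy-GFP cells.

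Crym-positive cells were then compared with Crym-zero cells of the same library, after summing transcripts over the cells of each kind, in the 11 libraries with at least 5 of both (4 day-60, 3 GLAST/EGF and 4 Troy-GFP libraries, 204 Crym-positive and 363 Crym-zero cells). Of 4511 genes tested with limma and the library as a block, 242 passed at an adjusted p below 0.05 (Benjamini-Hochberg), 5.36% of those tested, with 148 higher (3.28%) and 94 lower (2.08%) in Crym-positive cells. Genes of secreted and membrane signals (Dkk3, Slit2, Fzd5), of the forebrain factor Six3 and of Apoe rose, while Sparc, Agt, Hopx, Pax6 and the channel and connexin genes Kcnj10, Kcnj16 and Gjb6 fell. Without cells that carried markers of other types, 161 of 4373 genes passed (3.68%, with 2.38% higher and 1.3% lower), 146 of them among the 242, which is 60.3% of the first and 90.7% of the second list, all with the same sign. Without GLAST/EGF library 4, 377 genes passed. Levels below are transcripts per 1000000 (CPM) of a library's summed cells, given as lowest, median and highest over the 11 libraries.

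**Figure D2:**
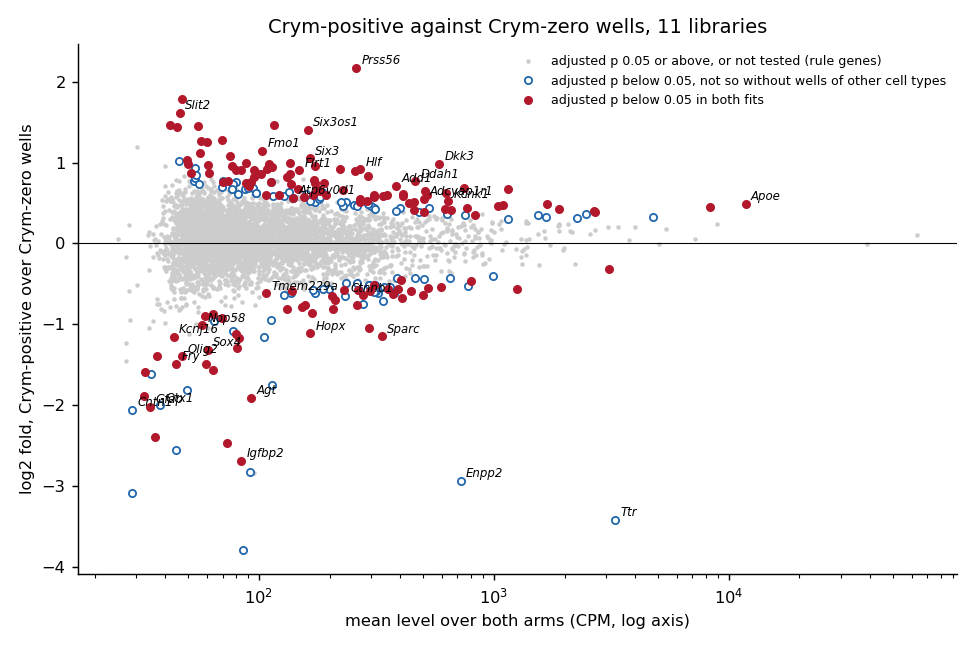
Each point is a gene, with its mean level over both kinds of cell (CPM, log axis) against its log2 fold, Crym-positive over Crym-zero cells, in 11 libraries; Crym itself is left out. Filled red points passed with all cells and without cells of other types, open blue points passed only with all cells, and the choroid plexus genes Ttr and Enpp2 are among the open ones.

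Levels of Dkk3 separated both kinds of cell without overlap. This gene encodes a secreted member of the Dickkopf family, some of which bind Wnt co-receptors. Its level was 506, 809 and 939.8 CPM in Crym-positive cells, against 297, 396 and 479.5 CPM in Crym-zero cells. Dkk3 rose by a log2 fold of 0.98 ± 0.11 (SE, adjusted p = 2.25e-09, limma), in 11 of 11 libraries. It was detected in 94.5% of Crym-positive and 61.6% of Crym-zero cells, against 15.2% of neuroblast-marker cells. The log2 fold was 1.17 ± 0.16 in day-60, 0.64 ± 0.25 in GLAST/EGF and 0.93 ± 0.17 in Troy-GFP libraries (SE).

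Six3, a homeobox factor of the anterior forebrain and eye, stood at 135, 233 and 354 CPM in Crym-positive cells, against 68.8, 99.2 and 151 CPM in Crym-zero cells. The ranges overlapped, and the gene was higher in 11 of 11 libraries, by a log2 fold of 1.05 ± 0.16 (adjusted p = 1.02e-05, limma). Its antisense neighbour Six3os1 stood at 144, 212 and 392 CPM in Crym-positive cells, against 32.7, 82.9 and 166 CPM in Crym-zero cells, a log2 fold of 1.41 ± 0.19 (adjusted p = 3.54e-07, limma). In GENCODE M21 (mm10) Six3 lies at chr17:85613608-85629302 on the plus strand and Six3os1 at chr17:85600651-85618398 on the minus strand, so their transcripts cannot be told apart unless counting used strand, which is not given in the sources used here. Of 12 regional patterning factors tested, Six3 was the only one that rose and 4 fell, against 3.28% and 2.08% of all genes. Their median log2 fold was 0.20, against 0.04 over all genes.

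The patterning genes that fell include markers of other forebrain domains. Pax6, a factor of dorsal progenitors, stood at 0, 109 and 176 CPM in Crym-positive cells, against 144, 190.4 and 322 CPM in Crym-zero cells (log2 fold -0.79 ± 0.18, adjusted p = 0.00229, limma, lower in 10 of 11 libraries). Nr2f1, a nuclear receptor that patterns the cortex, had a log2 fold of -0.86 ± 0.19 (adjusted p = 0.00169) and Hopx, a homeodomain-only protein, one of -1.11 ± 0.18 (adjusted p = 2.04e-05). Hopx was lower in 11 of 11 libraries and Nr2f1 in 9. Otx1, at a log2 fold of -2.002 ± 0.453 (adjusted p = 0.00248), was a sparse gene, with a median of 7.62 CPM in Crym-positive cells and 61.02 CPM in Crym-zero cells. Pax6, Hopx and Nr2f1 overlap genes on the other strand, Pax6os1, Hopxos and A830082K12Rik in the same order. Lhx2, among the most abundant members that did not pass, had a log2 fold of 0.12 ± 0.14.

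**Figure D3:**
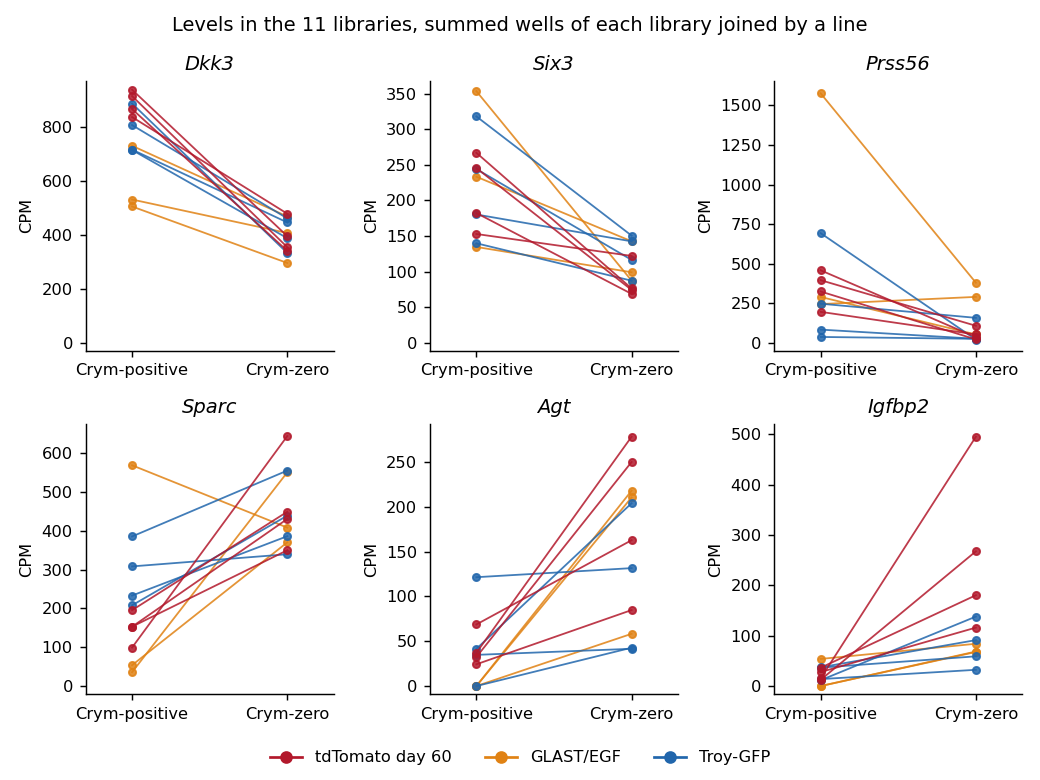
Levels (CPM, vertical axis) of 6 genes in Crym-positive cells (left) and Crym-zero cells (right) of each of 11 libraries, joined by a line and coloured by sort. Lines of Dkk3 and Six3 fall to the right and those of Agt and Igfbp2 rise to the right in every library, while 1 GLAST/EGF library runs the other way for Prss56 and 1 for Sparc.

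Signals and receptors were among the other higher genes. Of 21 Wnt and planar polarity genes tested, 3 rose and 0 fell, with a median log2 fold of 0.11: Dkk3 and the Frizzled receptor genes Fzd2 (0.64 ± 0.12, adjusted p = 0.000348) and Fzd5 (1.25 ± 0.24, adjusted p = 0.00038, limma). The same count of 3 was found without cells of other types. Over all genes tested with all cells, 3.28% rose and 2.08% fell. Slit2, a repellent cue known to steer migrating neuroblasts, led the 12 genes with the highest folds by the rule stated under processing (1.62 ± 0.36, adjusted p = 0.00169), at 4.62, 23.2 and 355 CPM in Crym-positive cells, against 0, 10.7 and 67.5 CPM in Crym-zero cells. It was higher in 11 of 11 libraries but sparse, and with 1 library left out it was tested in only 6 of 11 fits, passing in each. Slit2 stood at 355, 135 and 144 CPM in Crym-positive cells of GLAST/EGF libraries 2, 3 and 4, against 67.5, 61.1 and 26.3 CPM in their Crym-zero cells. In the other 8 libraries Slit2 lay at 46.6 CPM or below in Crym-positive cells, and it was not tested when any 1 GLAST/EGF library was left out. Adcyap1r1, the PACAP receptor, stood at 396, 625 and 749 CPM in Crym-positive cells, against 344, 414 and 469 CPM in Crym-zero cells (log2 fold 0.55 ± 0.11, adjusted p = 0.000508). Flrt1, which encodes a leucine-rich repeat adhesion protein and lies within Macrod1 on the other strand, had a log2 fold of 0.91 ± 0.17 (adjusted p = 0.000162, limma), and its transcripts cannot be told from those of Macrod1 without strand. Both rose in 11 of 11 libraries.

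Enzyme and transport genes and a transcription factor complete the higher end. Hlf, a PAR-family factor, stood at 233.5, 365 and 479.9 CPM in Crym-positive cells, against 129, 184 and 237 CPM in Crym-zero cells, a log2 fold of 0.91 ± 0.14 (adjusted p = 4.14e-06, limma). Ddah1, which breaks down an inhibitor of nitric oxide synthases, had a log2 fold of 0.77 ± 0.13 and Fmo1, a flavin monooxygenase, one of 1.15 ± 0.20 (adjusted p = 2.83e-05 and 4.65e-05). Add1, the membrane skeleton protein alpha-adducin, had a log2 fold of 0.72 ± 0.13 (adjusted p = 0.000111). Each of these was higher in 11 of 11 libraries, with ranges that overlapped. Kcnk1, a leak potassium channel, rose by a log2 fold of 0.52 ± 0.11 (adjusted p = 0.000787). Atp6v0d1, a subunit of the vacuolar proton pump, had a log2 fold of 0.56 ± 0.16 (adjusted p = 0.0223) and did not pass when day-60 library 3, day-60 library 4 or Troy-GFP library 1 was left out.

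Genes chosen after their values were seen add to the picture. Prss56, which encodes a secreted serine protease known from mouse retinal glia, stood at 37.3, 289.9 and 1576 CPM in Crym-positive cells, against 20.7, 53.1 and 380.0 CPM in Crym-zero cells. It was higher in 10 of 11 libraries, the exception being GLAST/EGF library 3, with a log2 fold of 2.17 ± 0.25 (adjusted p = 2.25e-09, limma). Rpe65, the retinoid isomerase of the visual cycle, had a log2 fold of 1.46 ± 0.22 (adjusted p = 4.14e-06) and Cnr1, the cannabinoid receptor CB1, one of 1.79 ± 0.29 (adjusted p = 1.94e-05). Both kept the call without cells of other types. Prss56 was detected in 39.6% of Crym-positive, 13.97% of Crym-zero and 2.10% of neuroblast-marker cells.

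At the low end, Igfbp2, which binds insulin-like growth factors, stood at 0, 15.2 and 53.9 CPM in Crym-positive cells, against 32.3, 91.3 and 495 CPM in Crym-zero cells (log2 fold -2.69 ± 0.33, adjusted p = 2.66e-08, limma). Agt stood at 0, 32.3 and 121 CPM in Crym-positive cells, against 41.6, 163 and 278 CPM in Crym-zero cells (log2 fold -1.91 ± 0.29, adjusted p = 6.03e-06). Both were lower in 11 of 11 libraries, with overlapping ranges. Further genes lower in all 11 were Fry, a scaffold of cell shape (-1.49 ± 0.32), Sox4, a neuroblast factor (-1.32 ± 0.36), Olig2, an oligodendroglial and progenitor factor (-1.40 ± 0.36), and Nop58, of the nucleolar snoRNP core (-1.01 ± 0.29, all log2 folds with SE). Their adjusted p were 0.00131, 0.0161, 0.00911 and 0.0223 in the same order. Olig2 did not pass without GLAST/EGF library 4, nor Nop58 without day-60 library 2 or Troy-GFP library 1, 2 or 4. Cntn1, an adhesion protein of axons, had a log2 fold of -2.06 ± 0.40 (adjusted p = 0.000356) at a median of 0 CPM in Crym-positive cells and 39.99 CPM in Crym-zero cells, and was not tested once cells of other types were left out, nor was Otx1. Ctnnb1, beta-catenin, had a log2 fold of -0.65 ± 0.15 (adjusted p = 0.00298) that did not pass without cells of other types (adjusted p = 0.0748). Tmem229a, at -0.61 ± 0.18 (adjusted p = 0.0335), passed in 6 of 11 fits that left out 1 library, and not without GLAST/EGF library 3, day-60 library 1, 2 or 4, or Troy-GFP library 4.

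Astrocyte function genes moved in both directions. Of 25 astrocyte markers tested outside the gate, 3 rose and 2 fell, where 3.28% of all genes tested rose and 2.08% fell. Apoe, the main lipoprotein of astrocytes, stood at 5101, 14888 and 18289 CPM in Crym-positive cells, against 6273, 10504.5 and 11497 CPM in Crym-zero cells (log2 fold 0.49 ± 0.07, adjusted p = 4.14e-06, limma), higher in 10 of 11 libraries. Cst3, the protease inhibitor cystatin C, and Ttyh1, a membrane protein of glia, rose by 0.45 ± 0.07 and 0.39 ± 0.09. Gfap, the intermediate filament, had a log2 fold of -2.02 ± 0.49 (adjusted p = 0.00564) at a median of 0 CPM in Crym-positive cells and 36.03 CPM in Crym-zero cells. The rule keeps Thbs4-positive cells out of the first arm only, 410 of the 458 Crym-zero cells had fewer than 2 Thbs4 transcripts, and Gfap was not tested with the Crym-zero arm limited to those. Of 26 transporters, channels and gap junction genes, 1 rose (Kcnk1) and 5 fell, with a median log2 fold of 0.04. Those that fell were the potassium channels Kcnj10 (-0.59 ± 0.14, adjusted p = 0.00423) and Kcnj16 (-1.16 ± 0.30, adjusted p = 0.0107), the connexin gene Gjb6 (-0.64 ± 0.16, adjusted p = 0.0068), Atp13a4 (-0.76 ± 0.18, adjusted p = 0.00313) and the glycine transporter gene Slc6a9 (-0.81 ± 0.19, adjusted p = 0.00445). Gjb6 did not pass without day-60 library 4. The sodium pump gene Atp1b2, at a log2 fold of 0.04 ± 0.09, did not pass.

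Of 19 quiescent stem cell markers tested, 2 rose and 5 fell, against 3.28% and 2.08% of all genes tested. Ptn, the secreted factor pleiotrophin, stood at 499, 1661 and 1930.0 CPM in Crym-positive cells, against 652, 846 and 1123 CPM in Crym-zero cells (log2 fold 0.68 ± 0.10, adjusted p = 6.13e-06, limma), higher in 10 of 11 libraries. Hes5, an effector of Notch signalling, rose by 0.62 ± 0.11 (adjusted p = 0.000108). Sparc, a secreted matrix protein, stood at 35.8, 195 and 569 CPM in Crym-positive cells, against 339.5, 430.4 and 644 CPM in Crym-zero cells (log2 fold -1.15 ± 0.18, adjusted p = 1.27e-05), lower in 10 of 11 libraries. With Crym-zero cells limited to fewer than 2 Thbs4 transcripts, Sparc kept a log2 fold of -0.97 (adjusted p = 0.00105, limma). Igfbp5, at -0.77 ± 0.18 (adjusted p = 0.00415), had a log2 fold of -0.17 there (adjusted p = 0.721). Hopx, Gfap and Vim were the other members that fell, and Vim did not pass without cells of other types (adjusted p = 0.117).

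The other lists compare with 3.28% of all genes tested that rose and 2.08% that fell. Among them, 5 of 23 matrix and adhesion genes rose and 1 fell. The rising ones were Bcan, Cspg5, Timp3, Ncam1 and Gpc6 and the falling one Sparc. Cspg5, a brain chondroitin sulfate proteoglycan, rose by 0.47 ± 0.10 (adjusted p = 0.000565) and Timp3, a metalloprotease inhibitor, by 0.46 ± 0.10 (adjusted p = 0.00291, limma). Bcan, Ncam1 and the elongase Elovl5 passed here but not without cells of other types, where 3 of 23 matrix and adhesion genes rose and 1 fell. Of 34 lipid and cholesterol genes, 6 rose, among them Apoe, the cholesterol exporter Abca1 (0.42 ± 0.11, adjusted p = 0.0135, not passing without Troy-GFP library 3) and the serine synthesis enzyme Psat1 (0.59 ± 0.13, adjusted p = 0.00131). The sterol enzyme Msmo1 was the 1 that fell (-0.47 ± 0.11, adjusted p = 0.00415). Without cells of other types 3 of the 34 rose and 1 fell, and without progenitors and dividing cells too 3 rose and 3 fell. Of 9 glutamate and GABA receptor genes, 2 rose, Grm3 (0.61 ± 0.13, adjusted p = 0.00145) and Gabbr2, and Gabbr2 did not pass without cells of other types. Of 11 Notch genes 2 rose, Hes5 and Hey1, and Hey1 likewise lost its call there. Of 23 glial transcription factors 1 rose, Zfhx4 (0.90 ± 0.21, adjusted p = 0.00392), and of 18 glycolysis and glycogen genes 2 fell, Ldha and Pygm, each of which lost its call in 4 or 5 of the 11 fits that left out 1 library. Pdgfrb, the 1 pericyte marker tested, rose by 0.87 ± 0.18 (adjusted p = 0.000936), and the 1 marker each of mature neurons, ependymal cells, microglia and endothelium that was tested did not pass with all cells. Without cells of other types the neuron marker Meg3 (1.04, adjusted p = 0.0142) and the endothelial marker Bsg (0.74, adjusted p = 0.000162) rose as well. Cspg5 is also the 1 member tested of the oligodendrocyte precursor list. None of 11 BMP and Id genes, 8 immediate early genes or 11 S, G2 and M phase genes passed with all cells. Without cells of other types 1 of the 11 BMP and Id genes rose.

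Crym binds thyroid hormone, so genes that move, convert or read this hormone were examined together. Of 14 tested, 0 rose and 1 fell, against 3.28% and 2.08% of all genes tested. The 1 that fell, Kcnj10, is the potassium channel gene described above, which the list holds although it is not such a gene. Without cells of other types 1 of the 14 rose and 1 fell. The transporter gene Slco1c1 had a log2 fold of 0.22 ± 0.12 (adjusted p = 0.330), the deiodinase gene Dio2 one of -0.35 ± 0.16 (adjusted p = 0.209), and the receptor genes Thra and Thrb ones of 0.06 ± 0.21 and 0.56 ± 0.28 (adjusted p = 0.932 and 0.292, limma). The median log2 fold of the 14 was 0.03, against 0.04 over all genes.

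Ribosomal, progenitor and choroid plexus genes that passed were lower in Crym-positive cells. Of 53 cytosolic ribosomal protein genes tested, 0 rose and 15 fell, with a median log2 fold of -0.40. Over all genes tested 3.28% rose and 2.08% fell, and the lists here compare with these shares. Of the ribosomal protein genes, 5 fell without cells of other types. Once progenitors and dividing cells were left out too 0 fell, and the median was -0.07. The library means of the summed ribosomal protein transcripts ran from 83.3 to 304 per 10000 in Crym-positive cells and from 93.3 to 262 in Crym-zero cells, highest in the Crym-positive cells of GLAST/EGF library 4. Of 11 progenitor markers 2 fell, Ccnd2 and Olig2, and of 7 neuroblast markers 2 fell, Sox4 among them. Ccnd2 had a log2 fold of -0.64 ± 0.16 (adjusted p = 0.00705, limma) and did not pass without Troy-GFP library 1 or 4. It was higher in Crym-positive cells of GLAST/EGF libraries 2 (1164 against 815 CPM) and 4 (1317 against 1252 CPM). Ccnd2 was also higher in those of Troy-GFP library 3 (390 against 287 CPM), and lower in the other libraries. Of the 6 Crym-positive cells with markers of progenitors or dividing cells, GLAST/EGF libraries 2, 3 and 4 held 1, 1 and 2. Once progenitors and dividing cells were left out too, Ccnd2 had a log2 fold of -0.20 (adjusted p = 0.651, limma). There, 0 of 6 progenitor markers and 0 of 3 neuroblast markers tested passed. Ttr and Enpp2, the choroid plexus genes tested, had log2 folds of -3.42 ± 0.18 and -2.93 ± 0.24 and did not pass without cells of other types. The summed choroid plexus markers had library means of 0.423 to 59.4 per 10000 in Crym-positive cells and 0.169 to 223 in Crym-zero cells. The MHC gene B2m was the 1 of 7 interferon and MHC genes to fall (-0.61 ± 0.17, adjusted p = 0.0173), and not without cells of other types.

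Gate cells with fewer than 2 Thbs4 transcripts were also ordered by their Crym transcripts, leaving out cells of other types, as a description with no test. The bins of 0, 1, 2, 3 to 4, 5 to 9, 10 to 19 and at least 20 Crym transcripts held 363, 53, 26, 42, 64, 50 and 33 cells, and the median depth of a bin ran from 4686 to 7622 transcripts, deepest in the last. Pooled Dkk3 was 350.4 CPM at 0, 472 CPM at 1 and 795 CPM at 2 Crym transcripts, and 745 to 827 CPM in the bins above. Dkk3 thus stepped up at the threshold and showed no further order above it. The bins pool cells of all sorts, whose shares of Crym-positive cells differ. An order over bins, or its absence, therefore need not hold within a sort, which was not examined. Prss56 was 81.5, 156, 253, 149, 330.3, 326 and 550.4 CPM over the 7 bins, and Hlf was 207, 304, 259.8, 273, 355, 379 and 426 CPM. Both were highest in the top bin. Below it Prss56 showed no steady order. Hlf rose with each bin from 2 Crym transcripts upward, while the bin of 1 lay above those of 2 and of 3 to 4. Sparc was 396, 232, 324, 220.01, 178, 177 and 103 CPM over the bins, and Hopx was 226, 161, 277, 81.8, 103, 89.9 and 51.5 CPM. Both were lowest in the top bin. Cells with 1 Crym transcript lay between the others for Dkk3 and Igfbp2, at 86.4 CPM of Igfbp2 against 196 CPM at 0 and at most 45.1 CPM above, and at the level of Crym-zero cells for Six3, at 98.9 CPM against 94.7 CPM.

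**Figure D4:**
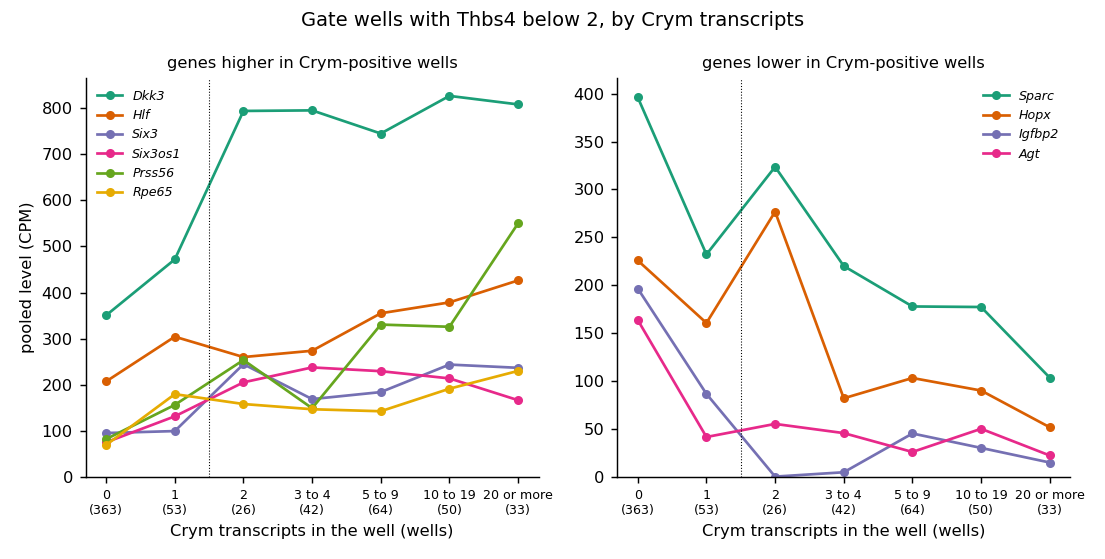
Pooled level (CPM, vertical axes) of genes higher (left) and lower (right) in Crym-positive cells, in gate cells binned by their Crym transcripts (horizontal axis, number of cells in brackets), without cells of other types. The dotted line is the threshold of the rule; Dkk3 reaches 795 CPM in the first bin right of it, and Sparc ends at 103 CPM in the last bin.

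Whether the difference between Crym-positive and Crym-zero cells itself differed between sorts was tested as an interaction. Between day-60 and Troy-GFP libraries 7 of 4511 genes passed (0.155%), with 2 higher (0.0443%) and 5 lower (0.111%). Igfbp5 stood at 161, 189.6, 152 and 236 CPM in Crym-positive cells of the 4 day-60 libraries, against 122, 82.6, 214 and 332 CPM in their Crym-zero cells. In the 4 Troy-GFP libraries it stood at 159, 117, 138 and 147 CPM in Crym-positive cells, against 399, 449, 585 and 489.7 CPM in Crym-zero cells. Igfbp5 was thus lower in Crym-positive cells of every Troy-GFP library and mixed in day-60 libraries, with a difference of log2 folds of 1.70 ± 0.34 (adjusted p = 0.00225, limma), which also passed without cells of other types (adjusted p = 0.0258) but not without day-60 library 2 (adjusted p = 0.0672). Thbs4 stood at 13.1 to 84.9 CPM in Crym-zero cells of day-60 libraries and at 239.6 to 569 CPM in those of Troy-GFP libraries. With Crym-zero cells limited to fewer than 2 Thbs4 transcripts, the difference for Igfbp5 was 1.44 and did not pass (adjusted p = 0.0662, limma). Sall3, a zinc finger factor, was higher in Crym-positive cells of all 4 day-60 libraries and lower in those of all 4 Troy-GFP libraries (1.76 ± 0.43, adjusted p = 0.0412), but not past the threshold without cells of other types (adjusted p = 0.0622), nor without any 1 of day-60 libraries 1 to 3 or Troy-GFP libraries 1, 2 and 4. The 5 lower genes, Atp2b3, Prlr, Enpp2, Igf2 and Stk39, include the choroid plexus marker Enpp2, whose day-60 levels were 699, 199.6, 194 and 143 CPM in Crym-positive cells, against 7095, 2652, 2591 and 1359.6 CPM in Crym-zero cells. Without cells of other types, Enpp2 and Stk39 did not pass (adjusted p = 0.970 and 0.196), and Atp2b3, Prlr and Igf2 were not tested. Without the library as a block no gene passed, with 288 below an unadjusted p of 0.05. The difference was not shown to depend on sort for Dkk3 (0.24 ± 0.23, adjusted p = 0.866), Six3 (0.43 ± 0.37, adjusted p = 0.8504) or Prss56 (0.48 ± 0.52, adjusted p = 0.903).

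Between GLAST/EGF and Troy-GFP libraries 56 genes passed (1.24%), 36 higher (0.798%) and 20 lower (0.443%). Ifitm3, an interferon-induced membrane protein gene, stood at 70.4, 80.6 and 144 CPM in Crym-positive cells of GLAST/EGF libraries 2, 3 and 4, against 67.7, 30.5 and 10.5 CPM in their Crym-zero cells. In Troy-GFP libraries Ifitm3 stood at 9.31, 34.8, 13.8 and 48.8 CPM in Crym-positive cells, against 69.2, 74.9, 301 and 139.9 CPM in Crym-zero cells. It was thus higher in Crym-positive cells of all 3 GLAST/EGF libraries and lower in those of all 4 Troy-GFP libraries, with a difference of log2 folds of 3.92 ± 0.89 (adjusted p = 0.00575, limma). Gria2, an AMPA receptor subunit gene, stood at 319, 298 and 253 CPM in Crym-positive cells of the 3 GLAST/EGF libraries, against 820.0, 540.1 and 845 CPM in their Crym-zero cells. In Troy-GFP libraries Gria2 stood at 706, 1180.5, 1240.5 and 1088 CPM in Crym-positive cells, against 877, 1022, 956 and 663 CPM in Crym-zero cells. Gria2 was lower in Crym-positive cells of all 3 GLAST/EGF libraries and higher in those of 3 of 4 Troy-GFP libraries (-1.56 ± 0.33, adjusted p = 0.00266, limma). All of these calls rest on GLAST/EGF library 4: without it 0 genes passed, with 252 below an unadjusted p of 0.05. Ifitm3 had a difference of 3.00 (adjusted p = 0.523) and Gria2 one of -1.22 (adjusted p = 0.371) without it.

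Crym-positive cells of day-60 libraries were compared directly with those of Troy-GFP libraries, and 18 of 2033 genes passed (0.885%), 5 higher (0.246%) and 13 lower (0.639%). Sdc4, the heparan sulfate proteoglycan syndecan-4, stood at 96.2, 76.2, 76.7 and 97.4 CPM in day-60 Crym-positive cells, against 232, 299, 257 and 181 CPM in Troy-GFP Crym-positive cells. The groups did not overlap, and Sdc4 fell by 1.47 on the log2 scale (SE 0.25, adjusted p = 0.000417, limma). Within the shared flow cell its log2 fold was -1.32 (adjusted p = 0.0396). Slc38a3, the glutamine transporter SNAT3, stood at 1159, 1371, 1066 and 1313 CPM in day-60 cells, against 533, 882, 748 and 752 CPM in Troy-GFP cells. It was higher in all 4 day-60 libraries (0.78 ± 0.17, adjusted p = 0.0116), and 0.71 within the flow cell (adjusted p = 0.0728). Slc38a3 did not pass without day-60 library 2 or 4 or Troy-GFP library 1.

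Sox11, a neuroblast factor, stood at 66.6, 26.9, 53.1 and 48.6 CPM in day-60 Crym-positive cells, against 186, 91.9, 202 and 157 CPM in Troy-GFP Crym-positive cells. Its log2 fold was -1.86 ± 0.38 (adjusted p = 0.00500, limma), with no overlap, and it did not pass without day-60 library 2 (adjusted p = 0.0976). Itm2b, an integral membrane protein gene, and Acss1, a mitochondrial acetyl-CoA synthetase, were higher by 0.58 ± 0.14 and 0.97 ± 0.24 (adjusted p = 0.0271 and 0.0330). Phf20l1 and Dync2h1, a chromatin reader and a ciliary dynein, were lower, at -1.21 ± 0.26 and -1.09 ± 0.25 (adjusted p = 0.0102 and 0.0188). These 4 had groups that did not overlap. Acss1 lost its call in 9 of the 11 fits that left out 1 library and Itm2b in 8, Dync2h1 without day-60 library 2 or 3 or Troy-GFP library 2, 3 or 4, and Phf20l1 without day-60 library 3 or 4 or Troy-GFP library 1. Within the flow cell the log2 folds of Itm2b, Acss1 and Phf20l1 were 0.49, 0.98 and -1.10, with adjusted p of 0.103, 0.247 and 0.133, and Dync2h1 had -1.29 (adjusted p = 0.0396). The sex-linked genes were among the 18: Xist, which is transcribed from the inactive X chromosome, stood at 492 to 851 CPM in day-60 cells and at 0, 0, 0 and 12.01 CPM in Troy-GFP cells. The Y-linked Ddx3y was at 0 in all 4 day-60 libraries, against 218 to 271 CPM in Troy-GFP libraries, and Eif2s3y at 0, against 135 to 186 CPM. Sex, age, alleles and tamoxifen cannot be told apart here. Dkk3 (0.17 ± 0.16, adjusted p = 0.655, limma) and Six3 (-0.02 ± 0.25, adjusted p = 0.989) did not pass, with levels that overlapped. The choroid plexus markers tested, Ttr and Enpp2, had a median log2 fold of 3.74 and did not pass. Their part in the result was not tested, and without cells of other types 19 genes passed. No list other than transporters, with Slc38a3, and neuroblast markers, with Sox11, had a member that passed.

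Crym-positive cells were next set against Agt-positive cells of the gate, with at least 2 Agt and fewer than 2 Crym and Thbs4 transcripts, in the 5 libraries with at least 5 of both (95 and 36 cells). Agt chose the second arm and has no test here. Of 774 genes tested, 103 passed (13.3%), 36 higher (4.65%) and 67 lower (8.66%) in Crym-positive cells. The 3 comparisons against other gate cells share Crym-positive cells. Their other arms overlap as well. Over all sorts, 1.67% of Agt-positive and 36.8% of Thbs4-positive cells held a Crym transcript, and the rest are also Crym-zero cells. Values of the 3 comparisons therefore stand side by side without a measure of likeness. Sparc stood at 36.9, 140, 97.1, 367 and 197 CPM in Crym-positive cells of GLAST/EGF library 4, day-60 libraries 1 and 4 and Troy-GFP libraries 1 and 3, against 1824, 791, 1532, 1825 and 903 CPM in Agt-positive cells. The groups did not overlap, and the log2 fold was -2.96 ± 0.30 (adjusted p = 3.58e-07, limma). Dkk3 stood at 521, 767, 919.8, 684 and 764 CPM in Crym-positive cells of these libraries, against 58.1, 444, 104, 59.6 and 357 CPM in Agt-positive cells, also without overlap (1.79 ± 0.40, adjusted p = 0.00282).

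Transport and metabolic genes were among the lowest folds against Agt-positive cells. Slc6a9, the glycine transporter GLYT1, had a log2 fold of -3.05 ± 0.32 and Slc14a1, the urea transporter UT-B, one of -2.73 ± 0.49 (adjusted p = 3.62e-07 and 0.000372, limma). Hsd11b1, which regenerates active glucocorticoids, had -3.32 ± 0.44 (adjusted p = 1.74e-05) and Etnppl, which breaks down phosphoethanolamine, -2.66 ± 0.40 (adjusted p = 5.31e-05). All 4 were lower in 5 of 5 libraries without overlap. The matrix gene Vwa1 was lower in 5 of 5 libraries with overlap (-2.09 ± 0.36, adjusted p = 0.000264). At the higher end stood the forebrain factor gene Lhx2 (2.63 ± 0.54, adjusted p = 0.00141), the sodium pump subunit gene Atp1b1 (2.44 ± 0.43, adjusted p = 0.000335), the cytokine gene Mif (1.72 ± 0.49, adjusted p = 0.0197) and Hlf (1.62 ± 0.43, adjusted p = 0.0142). Mif did not pass without day-60 library 1 or 4 or Troy-GFP library 1, nor Hlf without day-60 library 1 or Troy-GFP library 3. Ccnd2 was higher too (1.57 ± 0.37, adjusted p = 0.00459), at 1357 CPM in Crym-positive cells of GLAST/EGF library 4 and 90.7 to 368 CPM in those of the other 4 libraries, and it was not tested without that library.

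Astroglial transport genes were lower as a list against Agt-positive cells. Of 19 transporters, channels and gap junction genes, 1 rose and 12 fell, with a median log2 fold of -0.84 against -0.07 over all genes. Of all genes tested in this comparison 4.65% rose and 8.66% fell. Gjb6 and Kcnj10 had log2 folds of -1.91 and -1.78 (adjusted p = 2.23e-05 and 1.85e-05, limma). Of 22 ribosomal protein genes 6 rose and 0 fell. Of 17 lipid genes 3 rose, Prdx6, Phgdh and Psat1, and 2 fell, Msmo1 and Scd2, and of 14 matrix genes 4 fell, Sparc, Sparcl1, Timp4 and Lrig1. The number of calls was 48 to 54 when 1 of the day-60 or Troy-GFP libraries was left out, and 138 without GLAST/EGF library 4.

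Against Thbs4-positive gate cells, in Troy-GFP libraries 1 to 4 and day-60 library 2 (100 Crym-positive and 59 Thbs4-positive cells), 425 of 1715 genes passed (24.8%), 229 higher (13.4%) and 196 lower (11.4%). With totals not scaled by trimmed means, 184 of 435 were higher. Of the 59 Thbs4-positive cells, 19 also held at least 2 Crym transcripts, and Crym stood at 1231, 77.6, 424, 844 and 393 CPM in the Thbs4-positive cells of day-60 library 2 and Troy-GFP libraries 1 to 4. Without these 19, day-60 library 2 had too few Thbs4-positive cells, and in the 4 Troy-GFP libraries, with 61 Crym-positive and 38 Thbs4-positive cells, 299 of 1406 genes passed. Gria2 stood at 659.9, 705, 1174, 1218 and 1077 CPM in Crym-positive cells of day-60 library 2 and Troy-GFP libraries 1 to 4, against 31.1, 220.2, 211, 135 and 129.6 CPM in Thbs4-positive cells. The groups did not overlap (log2 fold 2.52 ± 0.25, adjusted p = 3.09e-08, limma). Vim, the intermediate filament vimentin, stood at 55.2, 65.2, 46.1, 81.5 and 48.3 CPM in Crym-positive cells of these libraries, against 314, 522, 326, 210.3 and 652 CPM in Thbs4-positive cells (-2.74 ± 0.35, adjusted p = 1.43e-06). Both genes moved the same way in 5 of 5 libraries.

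Astrocyte genes were higher in Crym-positive cells than in Thbs4-positive cells. Of 24 astrocyte markers 15 rose and 2 fell, of 20 transporters and channels 13 rose and 1 fell, of 18 matrix genes 10 rose and 1 fell, and of 5 glutamate and GABA receptor genes 4 rose. Their median log2 folds were 0.49, 1.03, 0.80 and 1.70 in the same order, against 0.03 over all genes. Of all genes tested in this comparison 13.4% rose and 11.4% fell. Car2, carbonic anhydrase 2, had a log2 fold of 3.73 ± 0.66 (adjusted p = 0.00013), S100b, a calcium-binding protein of astrocytes, 2.805 ± 0.562 (adjusted p = 0.00051), and Rpe65 3.11 ± 0.67 (adjusted p = 0.00102, limma). Pfkp, a phosphofructokinase, had 2.68 ± 0.60 (adjusted p = 0.00158). Of these, all were higher in 5 of 5 libraries without overlap. Hapln1, a marker gene with no test, stood at 177 to 520.1 CPM in Crym-positive cells and 0 to 93.4 CPM in Thbs4-positive cells.

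Interferon and ribosomal genes were lower, and stem cell markers went both ways. Fxyd6, a regulator of the sodium pump, had a log2 fold of -4.67 ± 0.66 and Gfap one of -3.37 ± 0.71 (adjusted p = 6.77e-06 and 0.000842, limma). Sfrp1, a secreted Wnt inhibitor, had -2.78 ± 0.35 (adjusted p = 1.38e-06), S100a6 -2.74 ± 0.30 (adjusted p = 1.78e-07) and Oasl2, an interferon-induced gene, -3.72 ± 0.52 (adjusted p = 5.11e-06). All were lower in 5 of 5 libraries, and Oasl2 alone among them had groups that overlapped. All 5 interferon and MHC genes tested fell, and of 51 ribosomal protein genes 45 fell and 0 rose, with a median log2 fold of -1.03. Of 18 quiescent stem cell markers 5 rose and 6 fell, where 13.4% of all genes tested rose and 11.4% fell.

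Some genes that were higher in Crym-positive than in Crym-zero cells were not shown to differ from Thbs4-positive cells. Dkk3 stood at 712 to 879 CPM in Crym-positive cells and 802 to 1010.2 CPM in Thbs4-positive cells (log2 fold -0.20 ± 0.14, adjusted p = 0.308, limma). Six3 stood at 139.7 to 315 CPM and 174 to 249.7 CPM in the same order (0.08 ± 0.23, adjusted p = 0.852), and Prss56 at 37.2 to 689 CPM and 117 to 411 CPM (0.02 ± 0.39, adjusted p = 0.973). Their ranges overlapped. A test that misses the threshold does not show equal levels. As shares of cells over all sorts, with no test, Fzd5 was found in 40.8% of Thbs4-positive and 27.2% of Crym-positive cells. Slit2 was found in 14.5% and 9.68% in the same order, Adcyap1r1 in 89.5% and 90.3%, and Ddah1 in 88.2% and 88.9%. Hlf, Fmo1, Flrt1, Add1, Atp6v0d1, Kcnk1, Rpe65 and Cnr1 were found more often in Crym-positive cells. Six3os1 was higher in Crym-positive cells (1.20 ± 0.32, adjusted p = 0.00683), in 4 of 5 libraries. Without the Thbs4-positive cells that also held at least 2 Crym transcripts, the log2 folds were 0.08 ± 0.19 for Dkk3, 0.44 ± 0.35 for Six3 and 1.08 ± 0.51 for Prss56 (adjusted p = 0.815, 0.427 and 0.126, limma), so these did not pass there either, and 2.45 ± 0.54 for Six3os1 (adjusted p = 0.000481).

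**Figure D5:**
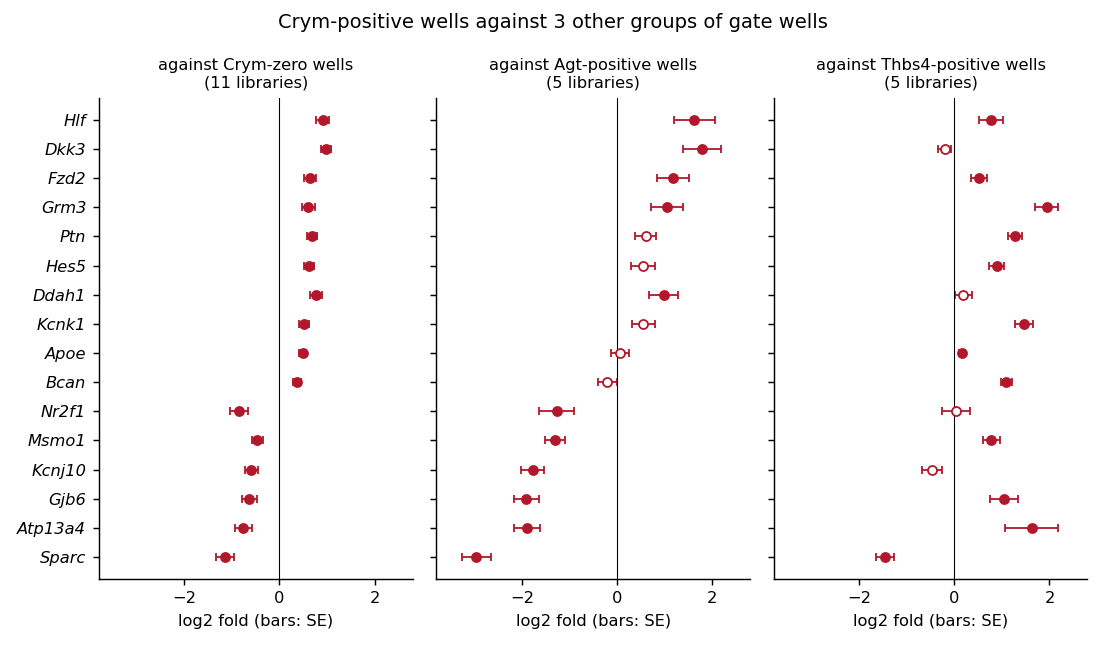
Log2 fold of Crym-positive cells (horizontal axes, bars are SE) over Crym-zero, Agt-positive and Thbs4-positive cells for 16 genes, chosen after their values were seen from list members tested in all 3; filled points passed at an adjusted p below 0.05. Dkk3 lies at 0.98, 1.79 and -0.20 in the 3 panels, and Sparc below 0 in each. The panels share Crym-positive cells, and Crym-zero cells include most Agt-positive and Thbs4-positive cells.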

How the data were processed

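SORT-seq libraries (28, each with 96 wells) were read on a NextSeq500 as 75 bp pairs and mapped with BWA 0.6.2-r126 to mm10, per the submitters' processing notes. Values are as the authors deposited them: estimated transcripts per gene and well, neither raw counts nor scaled values. They are molecular barcodes corrected for collisions among 256 barcodes: 4735106 of 4735115 values above 0 equal that correction within 1e-06. A count model was therefore not used.

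Wells below 1000 transcripts without ERCC were dropped; no doublet caller was run. Transcripts were summed per library and kind of cell where at least 5 cells were present, scaled by trimmed means (TMM, computed in R 4.3.3) and tested with limma 3.58.1 (voom, library as block, Benjamini-Hochberg over all genes tested except those of the rule). Genes needed about 10 transcripts at the median library size in at least 4 sums and 15 in all. CPM are scaled within each comparison, so a level differs slightly between comparisons. Log2 folds are fitted, ± SE. Direct comparison of sorts used all 11 libraries to estimate the spread and no block. Shares were tested with exact permutation tests (scipy 1.17.1).

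Cells were called another type when choroid plexus markers reached 100 per 10000 transcripts or oligodendrocyte, precursor, neuron, microglia, endothelial, pericyte or ependymal markers reached 50, and progenitors or dividing when those markers reached 50. These limits, the fits without such cells, those against Thbs4-positive cells below 2 Crym transcripts and the interactions with Crym-zero cells below 2 Thbs4 transcripts were chosen after seeing the data. Neuroblast-marker cells lie outside the gate and hold at least 50 neuroblast marker transcripts per 10000.

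The cells, gene lists and tests were chosen with earlier results of these data known. Named genes are the 12 highest and 12 lowest folds (6 and 6 in other comparisons) among genes that passed, moved the same way in every library or did not overlap, and averaged at least 50 CPM, plus the most abundant list members; others are marked as chosen after their values were seen. Some genes that the rule names are not reported here. On simulated data for Crym-positive against Crym-zero cells, with 4159 genes, the fit recovered 14.3% of changes of 0.5, 82.8% of changes of 1 and all 66 of 2 on the log2 scale, and called 4 of 3966 unchanged genes. The simulated spread was set alike for every gene and was not estimated from these data, so these rates need not hold for them. Gene positions are from GENCODE M21, promoters from RefSeq.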

Additional observations from a re-analysis of the deposited data

Results flagged for a closer look

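In 71 groups of 4 to 10 libraries examined for a library far from the rest, chance marks about 1 in 20, and 6 groups were marked. Xist stood at 12.01 CPM in Crym-positive cells of Troy-GFP library 4 and at 0 in the other 3 Troy-GFP libraries. In GLAST/EGF library 4, Crym-positive cells held 240.6 CPM of Hlf and 1357 CPM of Ccnd2, against 348 to 378 CPM and 90.7 to 368 CPM in the other 4 libraries of the comparison with Agt-positive cells. In Troy-GFP library 1, Crym-positive cells held 46.6 CPM of Fxyd6 and 74.6 CPM of Gfap, above the other 4 libraries of the comparison with Thbs4-positive cells, and the Thbs4-positive cells of Troy-GFP library 4 held 394 CPM of Gfap.

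The difference between Crym-positive and Crym-zero cells was larger or smaller in day-60 than in Troy-GFP libraries, by the limma interaction, for 7 genes: Sall3 (1.76 on the log2 scale), Igfbp5 (1.70), Stk39 (-2.96), Igf2 (-3.44), Enpp2 (-3.93), Prlr (-5.45) and Atp2b3 (-5.69). Of these, Igfbp5 also passed without cells of other types, but not with Crym-zero cells limited to fewer than 2 Thbs4 transcripts (adjusted p = 0.0662, limma). Without cells of other types, which include 13 choroid plexus cells among all Crym-zero cells, Enpp2 and Stk39 did not pass, and Igf2, Prlr and Atp2b3 were too low to be tested.

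Between GLAST/EGF and Troy-GFP libraries the interaction marked Ifitm3 (3.92), Btg2 (3.11), Swi5 (2.53), S100a6 (2.19) and Dek (2.11), and Tril (-1.91), Fut9 (-1.68), Syne1 (-1.64), Gria2 (-1.56) and Clmn (-1.48, all differences of log2 folds). None of these passed without GLAST/EGF library 4 (adjusted p 0.0515 to 0.919, limma).

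In the day-2 tdTomato sort, outside the comparisons, 85.7% of the 7 gate cells were Crym-positive.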

How the results depend on the processing

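Crym-positive against Crym-zero cells gave 242 genes, 231 without TMM (129 higher), 194 with no replicate block, 192 with Crym-zero cells below 2 Thbs4 transcripts, 245 with cells of at least 3000 transcripts, 174 with the gate at 60 per 10000 and 236 with Crym-positive cells from 1 transcript. It gave 1190 of 15732 with no filter on low counts, 35 of 617 with cells thinned to 1000 transcripts, 131 with limma's trend, 161 without cells of other types, 129 without progenitors and dividing cells too, and 170 to 377 with 1 library left out. For the other comparisons, in the order day-60 against Troy-GFP interaction (7), GLAST/EGF against Troy-GFP interaction (56), day-60 against Troy-GFP Crym-positive cells (18), Agt-positive (103) and Thbs4-positive (425), no filter gave 109, 42, 58, 1055 and 463, thinning 1, 0, 0, 13 and 45, and 1 library left out 4 to 20, 0 to 105, 5 to 26, 48 to 138 and 292 to 362. The 0 counts had 73 of 617 and 24 of 200 genes below an unadjusted p of 0.05. With Crym-zero cells below 2 Thbs4 transcripts the 2 interactions gave 7 and 33 genes, and with Thbs4-positive cells below 2 Crym transcripts that comparison gave 299. Without TMM the GLAST/EGF interaction gave 57 higher of 65, against 36 of 56, and Agt-positive 48 higher of 110, against 36 of 103.

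The interactions gave 0 and 0 genes with no replicate block (288 and 393 below an unadjusted p of 0.05). Day-60 against Troy-GFP gave 42 genes with a replicate block by library number, but same-numbered libraries deviated together in none of 4 pairs past 0.1 (correlations 0.0853, 0.0598, -0.0216 and 0.0175), and libraries 3 and 4 of day-60 correlated best with another number, so the numbers only name libraries. The day-60 share exceeded Troy-GFP by 13.8 to 19.8 points and GLAST/EGF by 20.7 to 26.7 points with 1 library left out, where adjusted p was 0.0571 to 0.0857 (exact permutation test, which with 3 against 4 libraries cannot pass after adjustment). The GLAST/EGF share lay at -8.79 with thinning, -11.6 from 1 Crym transcript, -9.13 with the gate at 60 and -7.45 points without cells of other types from Troy-GFP, and at -8.22 to -5.00 with 1 library left out. Signs reversed for Ctnnb1 with thinning (log2 fold 0.031), for Ttr without other types and progenitors (0.0499) and for Enpp2 with the gate at 60 (0.42), without other types (0.57) and without progenitors too (0.45). Except in the fits without cells of other types and with fewer cells, genes or libraries, the cause was not tested. Over single named genes against Crym-zero cells, 1189 values kept sign and call and 185 lost the call. Low counts limit the sparse genes.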
